A study of Homo sapiens with 12 samples.

Results

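Ribosome biogenesis genes were followed in HK-2 cells, an immortalised human line of kidney proximal tubule origin, after exposure to a compound labelled Ra or to its vehicle. The group held 46 listed genes: factors that modify, cut and assemble ribosomal RNA, subunits and factors of RNA polymerase I, and MYC. Members were found by gene symbol among probe sets that carry exactly 1 symbol, and where a gene had several, the one with the highest mean of the 12 arrays was used. Of the 46 listed genes, 41 had such a probe set, and all 41 reached at least 5 log2 units on at least 3 arrays, the filter for testing. NOP56, DKC1, GNL3, DDX18 and BOP1 had none and were not analysed here. In the whole series 19775 genes had such a probe set and 10050 passed the filter.

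Each of the 4 groups had 3 samples that the labels call biological replicates: vehicle control at 12 h, Ra at 12 h, vehicle control at 48 h and Ra at 48 h. All cells grew in the same medium with epidermal growth factor, hydrocortisone, insulin, transferrin and selenite, and were treated near confluence, 24 h after seeding. The series looked for expression signatures of kidney toxicity. The sources used here do not give the chemical identity of Ra, its dose or the vehicle. Total RNA was measured on Affymetrix 3′ expression arrays, and all values are deposited log2 expression values, so 1 unit is a 2-fold difference. An array measures relative amounts of RNA in bulk, so fewer cells making a transcript and less transcript per cell cannot be told apart.

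Ribosomes are built in the nucleolus. RNA polymerase I, with UBTF bound along the ribosomal genes and RRN3 attached to the enzyme, copies one long precursor RNA. Small nucleolar RNA particles guide its methylation and pseudouridylation, the small subunit processome folds and cuts its first part, and other factors mature and export the small and large subunits. MYC, a transcription factor that binds the E-box CACGTG together with MAX, is known to drive many genes of all these steps. Proliferating kidney epithelial cells in culture use the pathway heavily.

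The arrays differed in spread between the times. For the median member, replicates had an SD of 0.10 log2 units in control cells and 0.12 with Ra at 12 h, and of 0.19 and 0.37 at 48 h. The array of Ra 48 h replicate 2 had a narrower range of values than the others, with an SD of 2.81 across probe sets where the rest had 3.09 to 3.14, and at 48 h counts, class medians and differences that it moved by more than 1.5 times are also given without it. All 7 markers of the line and of kidney epithelium, PAX8 and the keratins KRT8, KRT18 and KRT19 among them, passed the filter. By limma PAX8 fell with Ra at 12 h, from a mean of 10.97 to 10.52, and EPCAM rose from 12.74 to 13.08 (adjusted p 0.0225 and 0.0254). Of 8 genes of the differentiated proximal tubule, such as LRP2, 0 passed the filter. Of the markers of other cell types, 3 of 7 fibroblast and 2 of 5 podocyte genes passed the filter, as did 0 of 6 endothelial, 0 of 6 immune and 0 of 6 distal nephron genes. Of these 3 fibroblast and 2 podocyte genes, 0 had a limma adjusted p under 0.05 at 12 h, against 13.6% of all genes. The count at 48 h was also 0, but so was that of all genes. So few markers cannot show whether other cell types responded. The summed log2 level of the fibroblast markers was 36.9 to 38.5 in control cells and 38.4 to 39.5 with Ra at 12 h, and that of the podocyte markers 18.3 to 18.7 and 18.7 to 18.9; their part in the results was not tested.

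At 12 h a large share of the pathway was lower with Ra, by a modest amount. The test was limma on the 6 arrays of that time, with Benjamini-Hochberg adjustment over all 10050 genes at 0.05. Of the 41 members 21 fell and 0 rose. Among all genes tested, 6.25% fell and 7.34% rose. The members' median difference between Ra and control was -0.45 log2 units, against 0.01 over all genes. The mean was lower with Ra in 38 members (48% of all genes), the exceptions being POLR1E, UBTF and MYC. In 33 members every Ra array lay below every control array, which held for 16.9% of all genes, and in 1 member, MYC, every Ra array lay above. NOP16 was the 1 member that fell at least 2-fold.

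**Figure D1:**
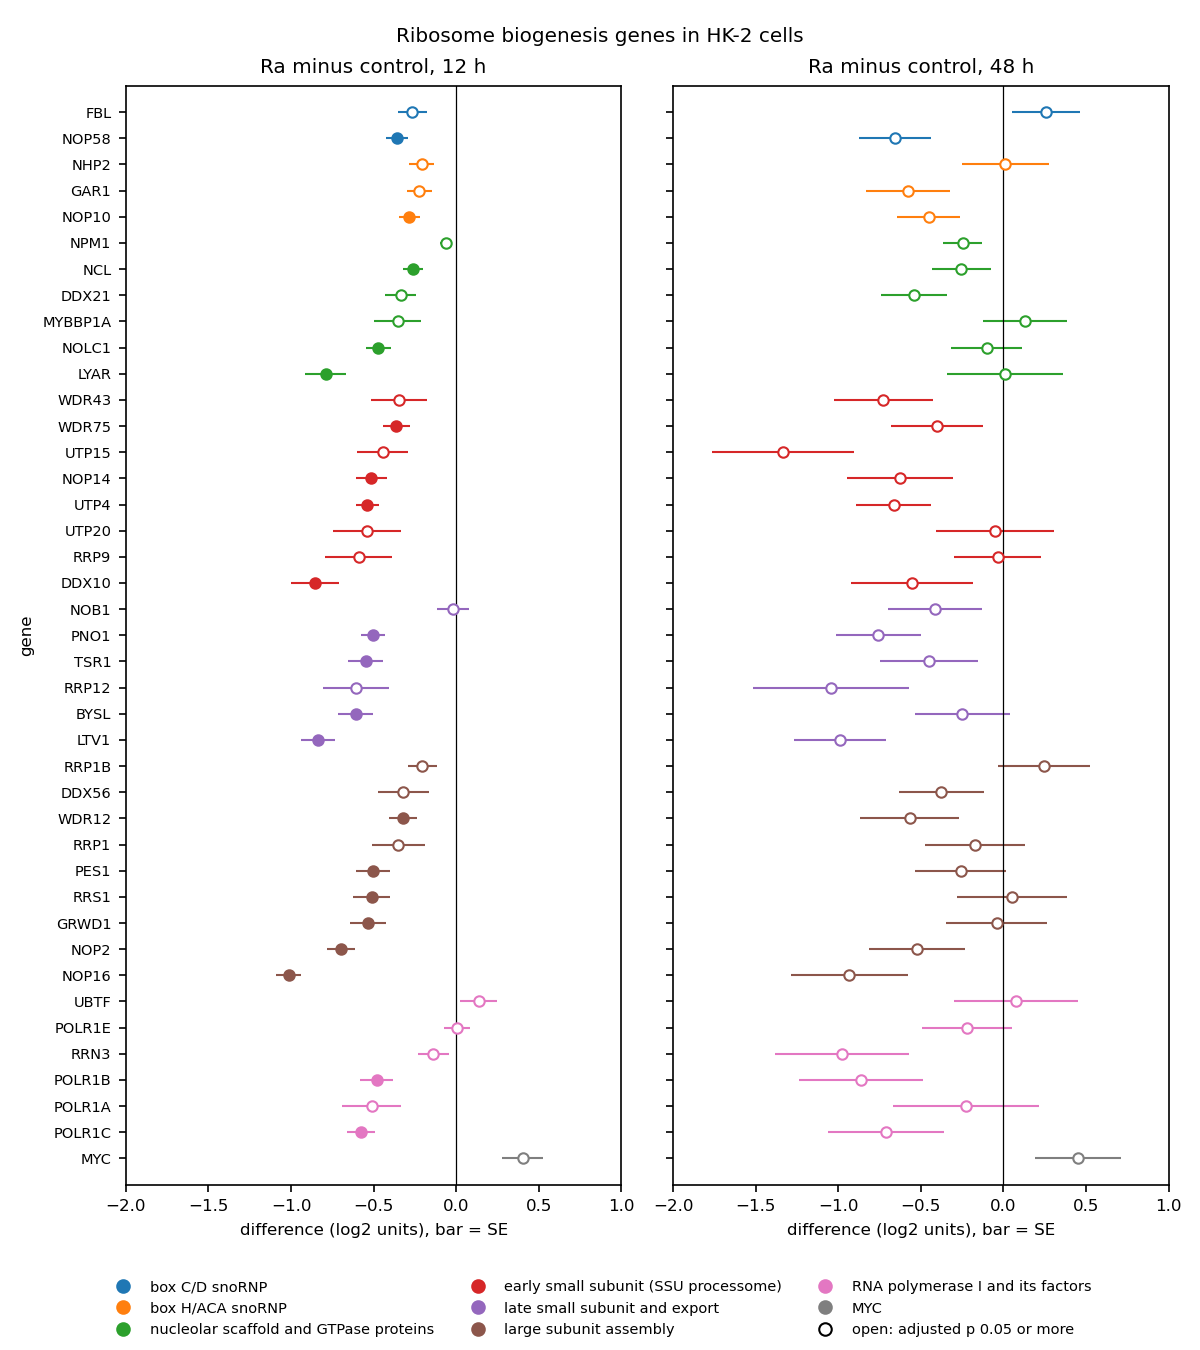
Difference between Ra and control cells for each of the 41 measured genes (rows, coloured by role), at 12 h on the left and 48 h on the right, in log2 units with the standard error as a bar; filled points had a limma adjusted p under 0.05. At 12 h 38 points lie left of 0 and 21 are filled, whereas at 48 h 33 lie left of 0, none is filled and the bars are longer.

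The count of 21 depended on how the spread was estimated and on single arrays. When the spread was estimated over all 12 arrays, limma called 0 of the 41 members at 12 h, and 0% of all genes were called lower. An unadjusted p under 0.05 was then found for 17 members and 751 of all 10050 genes. The count was 8 without control replicate 1 (1.53% of all genes) and 8 without Ra replicate 2 (1.26% of all genes). It was 13 without control replicate 3 (2.13% of all genes) and 13 without Ra replicate 1 (1.31% of all genes). Between 37 and 38 members had a lower mean whichever array was left out. LYAR, NOLC1, UTP4, LTV1, PNO1, NOP2, NOP16 and POLR1C, the 8 that passed without control replicate 1, also passed without any other single array of that time. With the replicate number as a block, 27 members fell (10.7% of all genes), the same 21 with FBL, DDX21, RRP9, WDR43, UTP15 and RRP12 added, and MYC rose.

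Promoter sequence was not used to choose the members. RefSeq promoter windows on GRCh38.p14, from 250 bases before to 50 after a transcript start, were found for 37 of the 46 listed genes, and 17 of these (45.95%) held the 6-base E-box CACGTG, a palindrome that reads alike on both strands. It occurred in 8.77% of all 27305 genes with a window and in 13.43% of the 8361 such genes that were tested here. The E-box and the 10 bases on either side are shown in capitals and lower case for 8 of the 9 members that fell at 12 h and hold the motif; in the ninth, NOP2, the site lies too near the edge of the window to show both flanks.

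LYAR: gcggcgagtcCACGTGctccccgcgg (chr4:4290070-4290095, minus strand, 64 bases before the start)
NOP10: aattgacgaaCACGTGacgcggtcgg (chr15:34343132-34343157, minus strand, 11 bases before the start)
UTP4: agcgcgcgcgCACGTGgggccggggc (chr16:69132623-69132648, plus strand, 16 bases before the start)
NOP14: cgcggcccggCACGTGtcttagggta (chr4:2963376-2963401, minus strand, 15 bases after the start)
PNO1: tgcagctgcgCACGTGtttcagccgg (chr2:68157887-68157912, plus strand, 9 bases after the start)
LTV1: cctggggctgCACGTGtggtgaggcc (chr6:143843356-143843381, plus strand, 28 bases after the start)
BYSL: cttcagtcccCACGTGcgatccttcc (chr6:41921517-41921542, plus strand, 28 bases after the start)
PES1: cttggcagggCACGTGcgggaggaag (chr22:30591882-30591907, minus strand, 13 bases after the start)

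All 8 sites shown lie within 64 bases of the start that RefSeq gives for the window, which for BYSL and PES1 is inside the span of the gene. NOP10 holds another E-box 170 bases before its start, and LYAR has another RefSeq start farther upstream whose window holds no E-box. Members without the motif fell too. The 100 bases before the start are shown for NOP16 and DDX10, which had the largest differences at 12 h and no E-box in their windows, and for UTP4, where the E-box is in capitals near the right end.

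NOP16: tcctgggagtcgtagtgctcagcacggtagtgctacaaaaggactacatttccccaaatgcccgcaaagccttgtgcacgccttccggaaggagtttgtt (chr5:176388599-176388698, minus strand)
DDX10: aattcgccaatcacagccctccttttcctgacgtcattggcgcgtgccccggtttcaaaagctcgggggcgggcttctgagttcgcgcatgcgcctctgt (chr11:108664969-108665068, plus strand)
UTP4: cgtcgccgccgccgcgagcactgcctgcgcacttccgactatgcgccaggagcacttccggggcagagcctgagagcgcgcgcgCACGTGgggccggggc (chr16:69132549-69132648, plus strand)

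Members with and without the motif were among those that fell. Of the 16 tested members with the motif 9 fell, and of the 18 without it 9 fell as well. Over all tested genes with a window, 8.37% of the 1123 with the motif fell and 6.23% of the 7238 without it. The motif was also found in 36.84% of the other small subunit factors, 31.71% of the other large subunit factors and 40% of the RNA polymerase III genes with a window. It was found in 11.11% of the other RNA polymerase I genes, 9.09% of the exosome genes and 6.82% of the cytosolic ribosomal protein genes. Of the RNA polymerase I members with a window, POLR1A, POLR1B, POLR1C, RRN3 and UBTF, 0 held it. A match describes the letters in the window only.

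The factors that assemble the large subunit had the member with the largest difference at 12 h, and 6 of 9 measured members passed limma's test, with a median difference of -0.50. NOP16, a nucleolar protein of the early large subunit, read 10.69, 10.76 and 10.63 on the control arrays and 9.68, 9.61 and 9.74 with Ra. All 3 Ra arrays lay well below the lowest control array. The difference was -1.01 ± 0.08 (SE, n = 3 per group; limma adjusted p = 0.0040), 2.02-fold lower. A second probe set of NOP16 gave -0.85. NOP2, a methyltransferase of large subunit ribosomal RNA, read 9.80, 9.71 and 9.63 in control cells and 9.09, 8.96 and 9.00 with Ra. Its groups did not overlap either, and it fell by 0.70 ± 0.08 (limma adjusted p = 0.0065).

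The remaining large subunit factors fell less or did not pass. GRWD1, a carrier of a ribosomal protein, differed by -0.53 ± 0.11, RRS1, which helps to install the smallest ribosomal RNA, by -0.51 ± 0.11, and PES1 by -0.50 ± 0.10 (limma adjusted p 0.0232, 0.0271 and 0.0232). WDR12, which forms a complex with PES1 and BOP1, fell by 0.32 ± 0.08 (limma adjusted p = 0.0442), although another of its probe sets gave 0.10. The helicase DDX56 (-0.32), RRP1 (-0.35) and its paralogue RRP1B (-0.20) did not pass. On other probe sets the difference was -0.02 for RRP1 and 0.09 for RRP1B.

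Late small subunit factors, which trim, check and export the particle, had the lowest class median, -0.58, and 4 of 6 fell. LTV1, an assembly factor removed before the subunit is finished, read 9.92, 10.04 and 9.80 in control cells and 9.01, 9.00 and 9.24 with Ra. BYSL, bystin, another assembly factor of the small subunit, read 9.93, 9.70 and 9.97 against 9.32, 9.11 and 9.33. In both genes the highest Ra array was clearly below the lowest control array. The differences were -0.84 ± 0.10 for LTV1 and -0.61 ± 0.11 for BYSL (limma adjusted p 0.0071 and 0.0145).

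TSR1, a GTPase-like factor, fell by 0.55 ± 0.11 and PNO1, an RNA-binding partner of NOB1, by 0.50 ± 0.07 (limma adjusted p 0.0198 and 0.0091). Other probe sets of TSR1 gave -0.48, -0.53 and -0.05. RRP12, an export factor, differed by -0.61 ± 0.20 and did not pass (limma adjusted p = 0.0829, or 0.0482 with the replicate block). Another of its probe sets gave -0.09. NOB1, the nuclease that makes the end of the small subunit RNA, stood aside from its partners at -0.02 ± 0.10 (limma adjusted p = 0.909).

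Of the 8 early small subunit factors, all measured, 4 fell and all 8 had a lower mean, with a median of -0.53. DDX10, a helicase of the small subunit processome, read 8.59, 8.57 and 8.49 in control cells and 7.43, 7.66 and 7.99 with Ra. Its control arrays were nearly level while the Ra arrays spread over more than 0.5 units, all below control. DDX10 fell by 0.85 ± 0.15 (limma adjusted p = 0.0138). RRP9, a protein of the U3 particle that guides the first cuts, read 7.02, 6.40 and 7.19 against 6.42, 6.17 and 6.24. Here 1 control array lay among the Ra arrays, and the difference of -0.59 ± 0.20 did not pass (limma adjusted p = 0.0942; 0.0343 with the replicate block).

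UTP4, UTP15, WDR43 and WDR75 belong to the subcomplex that binds the precursor RNA first. UTP4 read 11.04, 10.93 and 10.95 in control cells and 10.38, 10.47 and 10.46 with Ra, a fall by 0.54 ± 0.07 (limma adjusted p = 0.0075). WDR75 fell by 0.36 ± 0.08 (limma adjusted p = 0.0312). UTP15 (-0.45) and WDR43 (-0.35) had lower means that did not pass, and passed with the replicate block (limma adjusted p 0.0430 and 0.0349). NOP14 fell by 0.52 ± 0.09 (limma adjusted p = 0.0167), and UTP20, a very large scaffold protein, differed by -0.54 ± 0.20 without passing (limma adjusted p = 0.118).

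Among nucleolar scaffold and helicase proteins 3 of 6 fell, and in all 6 the groups did not overlap. LYAR, a nucleolar protein linked to growth that binds precursor ribosomal RNA, read 11.42, 11.03 and 11.25 in control cells and 10.49, 10.26 and 10.58 with Ra. NOLC1, a chaperone of small nucleolar RNA particles, read 12.56, 12.52 and 12.52 against 12.06, 11.94 and 12.19. Control arrays of NOLC1 agreed within 0.1 units, and the Ra arrays were all lower. The differences were -0.79 ± 0.12 for LYAR and -0.47 ± 0.07 for NOLC1 (limma adjusted p 0.0113 for each), and other probe sets gave -0.71 for LYAR and -0.65 and -0.76 for NOLC1.

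The other scaffold proteins had smaller differences on the probe sets used here. Nucleolin, NCL, fell by 0.26 ± 0.06 (limma adjusted p = 0.0318). Nucleophosmin, NPM1, differed by -0.06 ± 0.04 on its brightest probe set, which read above 14 on every array at 12 h, and by -0.21 and -0.31 on others. The helicase DDX21 (-0.34 ± 0.09) had a limma adjusted p of 0.0539, or 0.0231 with the replicate block, and another of its probe sets gave -0.61. MYBBP1A, a nucleolar protein that can repress transcription, differed by -0.35 and did not pass.

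The core proteins of the RNA-guided modification particles showed small differences at 12 h. NOP58, which holds the box C/D RNA, read 11.95, 11.87 and 12.00 in control cells and 11.57, 11.52 and 11.65 with Ra and fell by 0.36 ± 0.07 (limma adjusted p = 0.0171). FBL, fibrillarin, the methyltransferase of the same particle, read 12.77, 12.86 and 12.94 against 12.53, 12.48 and 12.77. The highest Ra array of FBL only just stayed below the lowest control array, and the difference of -0.27 ± 0.09 did not pass (limma adjusted p = 0.0803; 0.0165 with the replicate block).

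Of the box H/ACA proteins, which carry out pseudouridylation with DKC1, NOP10 read 12.59, 12.58 and 12.70 in control cells and 12.39, 12.25 and 12.37 with Ra. It fell by 0.28 ± 0.06 (limma adjusted p = 0.0279). GAR1 read 11.21, 11.28 and 11.17 against 10.93, 10.96 and 11.11, a difference of -0.22 ± 0.07 (limma adjusted p = 0.0839). NHP2 was close to it at -0.21 ± 0.07 (limma adjusted p = 0.102). In all 3 genes the groups did not overlap.

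RNA polymerase I itself split. The subunit POLR1C, which RNA polymerase III also uses, read 9.31, 9.40 and 9.32 in control cells and 8.81, 8.68 and 8.81 with Ra. The large catalytic subunit POLR1B read 9.57, 9.29 and 9.29 against 8.84, 8.93 and 8.93. Both fell with no overlap, by 0.58 ± 0.08 and 0.48 ± 0.10 (limma adjusted p 0.0107 and 0.0241). The other 3 POLR1B probe sets gave smaller differences, -0.28, -0.18 and, with the opposite sign, 0.19. POLR1B did not pass when its probe sets were averaged (-0.19, limma adjusted p = 0.339). Nor did it pass without probe sets whose names end in _x_at or _s_at (-0.28, limma adjusted p = 0.242). The largest subunit, POLR1A, read 6.68, 6.61 and 7.10 against 6.52, 6.30 and 6.03, a difference of -0.51 ± 0.18 that did not pass (limma adjusted p = 0.0957).

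The other members of the polymerase I machinery differed little at 12 h. POLR1E, a subunit particular to RNA polymerase I, was level, at 8.63, 8.63 and 8.63 in control cells and 8.64, 8.62 and 8.65 with Ra (0.01 ± 0.08; limma adjusted p = 0.965). RRN3, the initiation factor, read 8.58, 8.51 and 8.46 against 8.46, 8.27 and 8.40 (-0.14 ± 0.09; limma adjusted p = 0.350). UBTF, the factor bound along ribosomal genes, read 8.22, 8.03 and 8.29 against 8.39, 8.39 and 8.17 (0.14 ± 0.11; limma adjusted p = 0.454), and its 3 other measured probe sets gave 0.17 to 0.34. The arrays of POLR1E and UBTF overlapped between the groups, whereas those of RRN3 did not, by less than the printed decimals show.

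MYC differed from most other members in having a higher mean with Ra. It read 12.05, 11.72 and 12.20 in control cells and 12.51, 12.26 and 12.40 with Ra at 12 h, so the lowest Ra array was just above the highest control array. The difference of 0.40 ± 0.12 did not pass (limma adjusted p = 0.0709). It did pass with the replicate block (limma adjusted p = 0.0094), after quantile normalization (0.0481), after centring of the arrays (0.0492) and with array weights (0.0421). MYC did not pass in the other settings where it was measured. There the limma adjusted p ran from 0.0501 (filter at 7 log2 units) to 0.727 (fit of all 12 arrays), and was 0.0581 to 0.198 without 1 array. Among 8 measured partners and competitors of MYC, 2 rose, MXI1 by 0.73 ± 0.17 and MNT by 0.69 ± 0.14 (limma adjusted p 0.0322 and 0.0234), both repressors that bind DNA with MAX, and 0 fell. Only RNA was measured, and whether MYC, MXI1 or MNT bear on the other members was not tested.

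**Figure D2:**
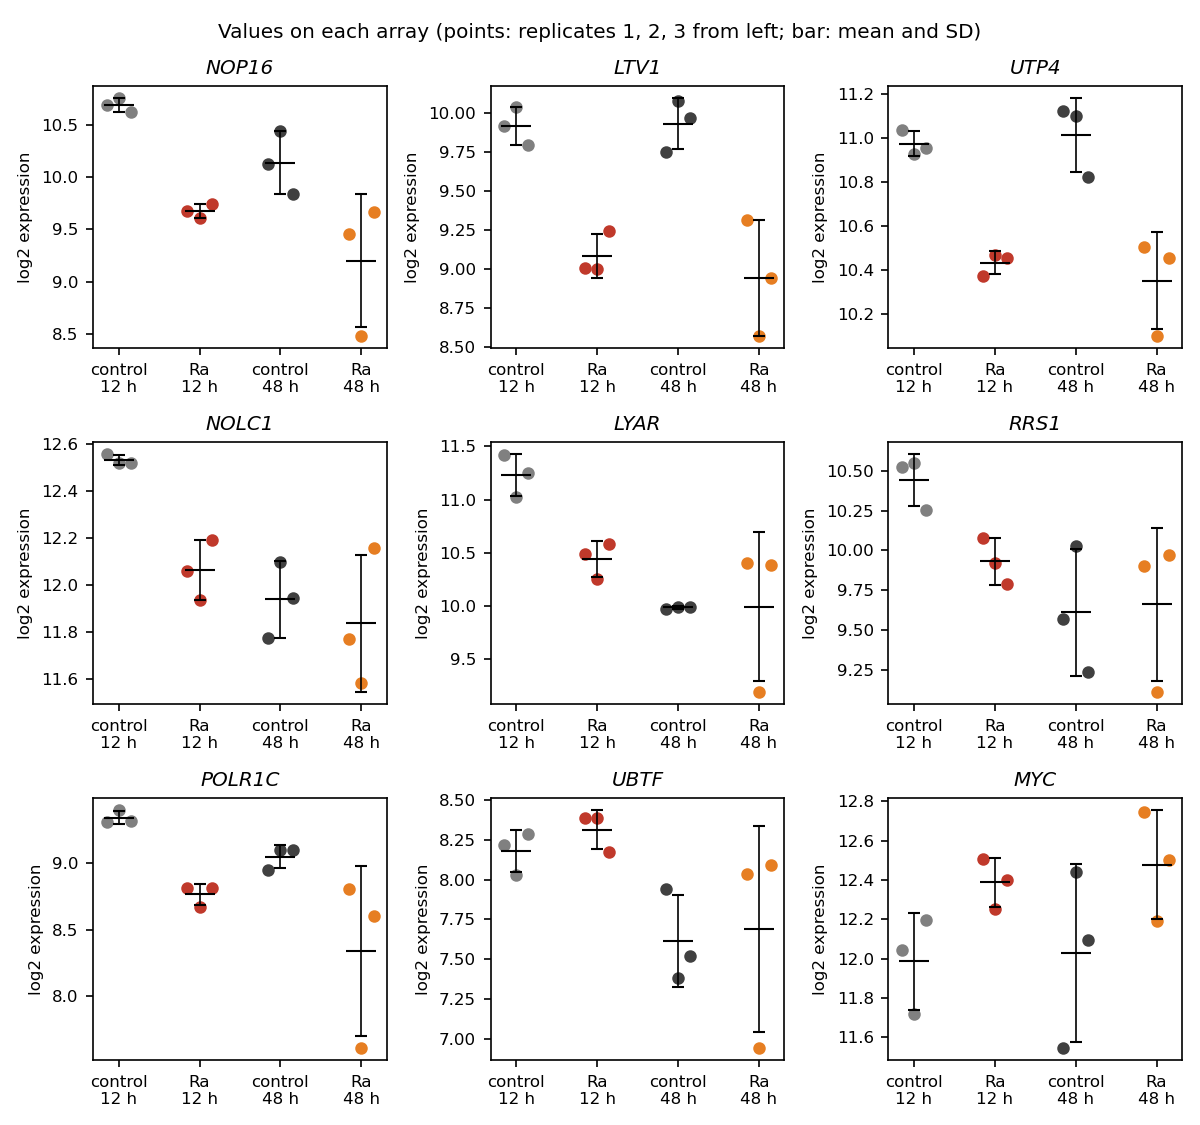
Log2 expression of 9 genes on each of the 12 arrays, with points for replicates 1 to 3 and a bar for the group mean and SD (n = 3); each panel has its own axis, which does not start at 0. Every Ra array is below every control array of the same time for NOP16, LTV1 and UTP4, LYAR and RRS1 are lower in control cells at 48 h than at 12 h, UBTF overlaps between Ra and control at each time, and Ra 48 h replicate 2 is the lowest Ra array at 48 h in all 9 panels.

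Where other probe sets of a member passed the filter, they mostly had the same sign. There were 26 such probe sets for 17 members at 12 h. Their differences ranged from -0.85 to 0.34 with a median of -0.29, and 23 had the sign of the probe set used here. The 3 that did not belonged to RRP1B, WDR12 and POLR1B.

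The rest of the pathway was read from lists that share no gene with the members. Of 45 other small subunit factors 24 fell at 12 h and 1 rose, with a median of -0.38. NOL6 fell by 0.83 ± 0.12 and the GTPase BMS1 by 0.67 ± 0.08, and RIOK3, a late-acting kinase, rose by 0.64 ± 0.09 (limma adjusted p 0.0107, 0.0065 and 0.0098). Of 45 other large subunit factors 15 fell and 0 rose, with a median of -0.31, among them MRTO4 (-0.72), RPF2, the partner of RRS1 (-0.67), and MAK16 (-0.53). Of 13 genes of the RNA exosome, which trims precursor RNA, 3 fell: EXOSC2, EXOSC4 and MTREX.

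Of 9 other RNA polymerase I genes POLR1G fell by 0.43 ± 0.10 and POLR1D rose by 0.46 ± 0.10 (limma adjusted p 0.0336 and 0.0241). Of 20 RNA polymerase III genes 4 fell, POLR3K (-0.73) and POLR3G (-0.71) by the most, and 0 rose. Of 7 subunits of RNA polymerase II 0 passed limma's test (2 at an unadjusted p under 0.05, against 3092 of all 10050 genes). Of 5 subunits shared between the enzymes POLR2F fell by 0.33 ± 0.08 (limma adjusted p = 0.0327).

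The measured genes of the ribosomal proteins themselves differed little at 12 h. Of 77 listed cytosolic ribosomal protein genes 50 were measured. Of these 50 genes 0 passed limma's test, 2 had an unadjusted p under 0.05 (3092 of all 10050 genes), and 0 passed with the replicate block. Their differences lay between -0.13 and 0.17 with a median of 0.00. Of 7 measured genes of the p53 response to nucleolar stress, 1 passed, where 7.34% of all genes rose. It was GDF15, a secreted stress hormone, which rose by 0.99 ± 0.21 (limma adjusted p = 0.0244). The others lay between -0.01 (CDKN2A) and 0.32 (MDM2), with CDKN1A at 0.03 and SESN1 at 0.04, and did not pass. Of the small nucleolar RNA host genes only 2 of 12 were measured, and EPB41L4A-AS1 rose by 0.50 ± 0.13 (limma adjusted p = 0.0458).

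**Figure D3:**
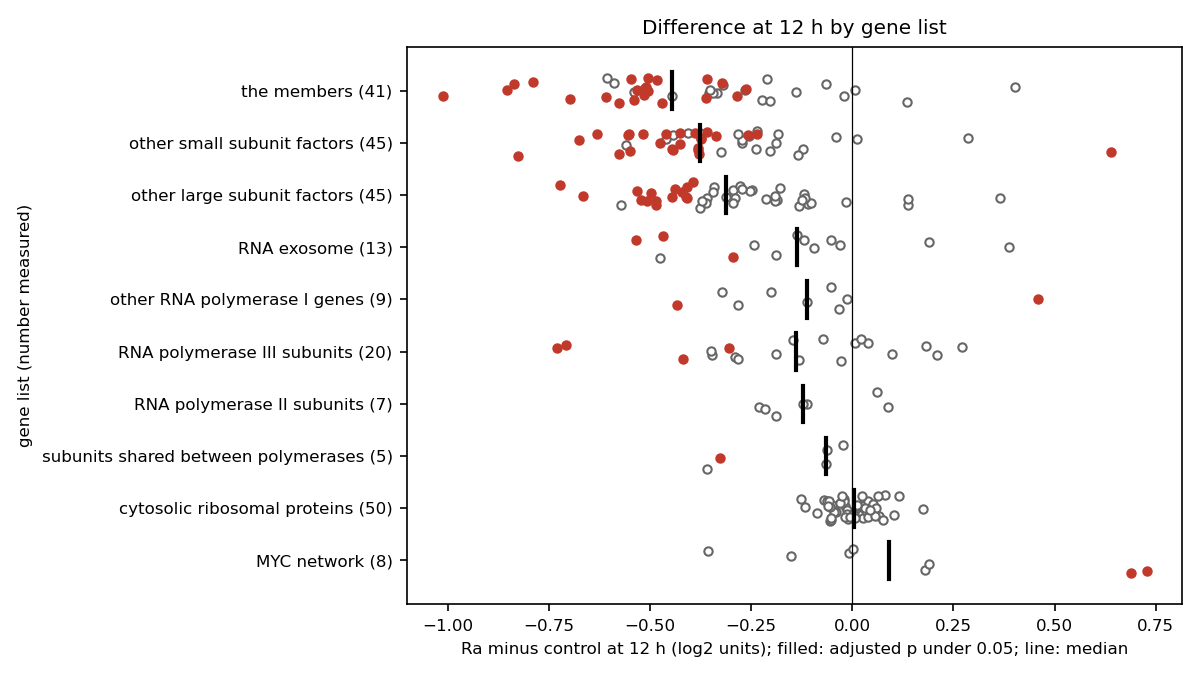
Difference between Ra and control at 12 h in log2 units (x axis) for each gene of the members and of 9 related lists, with filled points for a limma adjusted p under 0.05 and a vertical line at each list's median. The members (median -0.45) and the other small and large subunit factors (-0.38 and -0.31) lie mostly left of 0, and the 50 ribosomal protein genes lie between -0.13 and 0.17.

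At 48 h most members again had a lower mean with Ra, but none passed the test. Of the 41 members 0 passed limma's test on the 6 arrays of that time, as did 0% of all genes. An unadjusted p under 0.05 was found for 11 members and 1748 of all 10050 genes, and the members' lowest adjusted p was 0.199, for LTV1. The mean was lower with Ra in 33 members, where 67.1% of all genes were also lower, and the median difference was -0.40 against -0.20 over all genes. In 19 members every Ra array lay below every control array, against 18.6% of all genes, and in 0 every Ra array lay above.

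Ra 48 h replicate 2 weighs on these figures. The median member on that array was -1.0 relative to the control mean at 12 h, while the median of all genes was -0.65. On Ra 48 h replicates 1 and 3 the median member was at -0.41 and -0.44, and the median of all genes at 0.03 and -0.01. Without replicate 2, 28 members had a lower mean, the median difference was -0.18 against 0.01 over all genes, and 0 passed. An unadjusted p under 0.05 was then found for 12 members and 2150 of all 10050 genes. Then 19 members lay wholly below control (19.2% of all genes) and 6 wholly above (23.2% of all genes): FBL, LYAR, RRP1B, POLR1A, UBTF and MYC. With the spread taken over all 12 arrays, limma called 8 members lower at 48 h (9.56% of all genes): NOP58, NOP10, DDX21, UTP4, UTP15, LTV1, PNO1 and NOP16. With array weights 22 fell and 4 rose, where 24.5% and 23.1% of all genes did.

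**Figure D4:**
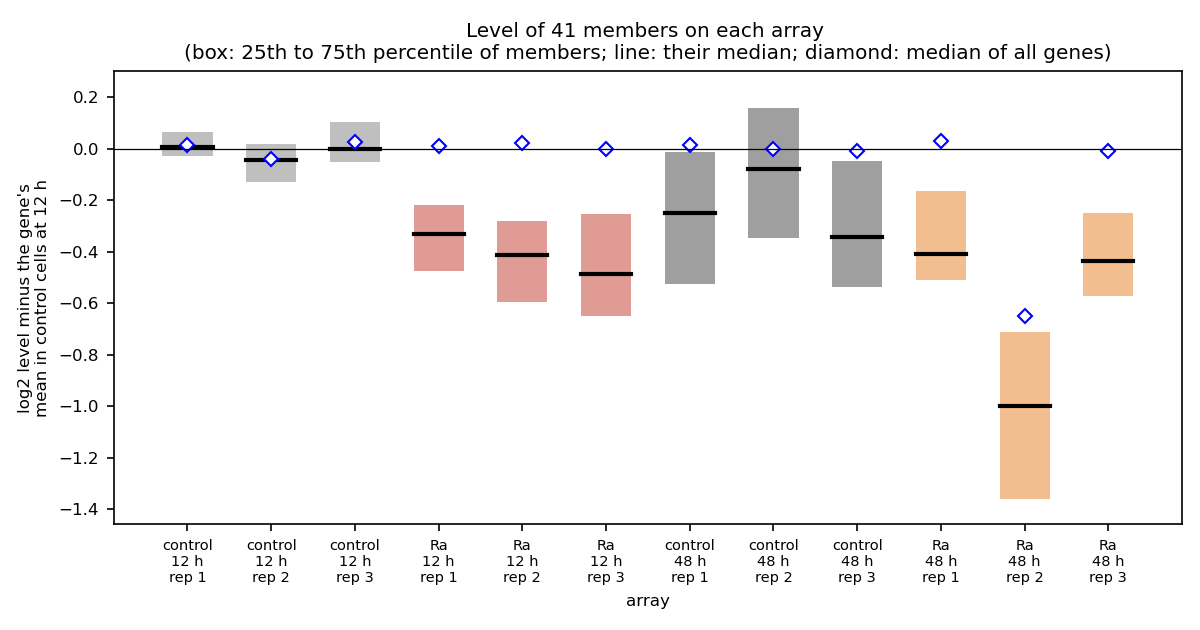
Level of the 41 members on each of the 12 arrays, as the log2 value minus the gene's mean in control cells at 12 h: boxes span the 25th to 75th percentile of members, black lines mark their median and diamonds the median of all 10050 genes. The median member is at -0.33, -0.41 and -0.49 on the Ra arrays at 12 h with the diamonds near 0, and at -1.0 on Ra 48 h replicate 2, where the diamond is at -0.65.

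Small subunit factors had class medians of -0.59 (early) and -0.60 (late) at 48 h, and of -0.29 and -0.37 without Ra replicate 2. LTV1 read 9.75, 10.08 and 9.97 in control cells and 9.31, 8.57 and 8.94 with Ra, a difference of -0.99 ± 0.28. All 3 Ra arrays were below control, replicate 1 the nearest to it. UTP4 read 11.12, 11.10 and 10.82 against 10.50, 10.10 and 10.45 (-0.66 ± 0.23), again with no overlap. UTP15 differed by -1.34 ± 0.43 and RRP12 by -1.04 ± 0.47, or by -0.87 and -0.52 without replicate 2.

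In BYSL, DDX10 and RRP9 the groups overlapped at 48 h. BYSL read 9.38, 9.79 and 9.37 in control cells and 9.46, 8.83 and 9.51 with Ra (-0.25 ± 0.29). DDX10 read 8.22, 8.64 and 8.17 against 8.21, 7.05 and 8.12 (-0.55 ± 0.37). RRP9 read 6.39, 6.60 and 6.12 against 6.38, 6.23 and 6.39 (-0.04 ± 0.27). In BYSL and DDX10 Ra replicate 2 alone was far below the controls, and without it the differences were -0.03 and -0.18, and 0.01 for RRP9.

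Large subunit factors had a class median of -0.26 at 48 h, or -0.08 without Ra replicate 2. NOP16 read 10.13, 10.44 and 9.84 in control cells and 9.46, 8.48 and 9.67 with Ra (-0.93 ± 0.35; limma adjusted p = 0.253). NOP2 read 9.27, 9.63 and 9.57 against 9.25, 8.50 and 9.15 (-0.52 ± 0.29). The Ra arrays of both genes stayed below control, NOP2 replicate 1 by very little. RRS1 read 9.57, 10.03 and 9.24 against 9.90, 9.11 and 9.97 (0.05 ± 0.33), with overlapping groups, and GRWD1 differed by -0.04 ± 0.30. Without replicate 2 the differences were -0.57 for NOP16, -0.29 for NOP2, 0.33 for RRS1 and 0.16 for GRWD1.

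LYAR read 9.97, 10.00 and 9.99 in control cells at 48 h and 10.41, 9.19 and 10.39 with Ra (0.01 ± 0.35). The Ra arrays lay on both sides of a tight control group, above it in replicates 1 and 3 and below it in replicate 2. NOLC1 read 11.77, 12.10 and 11.94 against 11.77, 11.58 and 12.16 (-0.10 ± 0.21). FBL read 12.24, 12.38 and 12.42 against 12.60, 12.26 and 12.96 (0.26 ± 0.21). Neither NOLC1 nor FBL separated the groups. Without replicate 2 the differences were 0.41 for LYAR, 0.03 for NOLC1 and 0.43 for FBL.

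NOP58 read 11.86, 12.04 and 11.59 in control cells at 48 h and 11.21, 10.94 and 11.39 with Ra (-0.65 ± 0.22). NOP10 read 12.63, 12.50 and 12.58 against 12.33, 11.81 and 12.23 (-0.45 ± 0.19), and GAR1 read 11.26, 11.47 and 10.94 against 10.88, 10.26 and 10.79 (-0.58 ± 0.26). These 3 core proteins had every Ra array below control, unlike FBL and NHP2 (0.01 ± 0.26). Without replicate 2 NOP10 differed by -0.30, GAR1 by -0.39 and NHP2 by 0.25.

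RNA polymerase I members varied widely at 48 h, with a class median of -0.47, or -0.20 without Ra replicate 2. POLR1B read 9.59, 9.76 and 9.33 in control cells and 9.32, 7.91 and 8.87 with Ra (-0.86 ± 0.38). POLR1C read 8.95, 9.10 and 9.10 against 8.81, 7.61 and 8.61 (-0.71 ± 0.35). RRN3 read 8.83, 9.28 and 8.76 against 8.48, 7.08 and 8.39 (-0.98 ± 0.41). In these 3 genes all Ra arrays were below control, and replicate 2 was more than 0.5 units below the other Ra arrays. Without it POLR1B differed by -0.47, POLR1C by -0.35 and RRN3 by -0.52.

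POLR1A read 6.24, 6.36 and 5.82 in control cells at 48 h and 6.47, 4.89 and 6.39 with Ra (-0.23 ± 0.44). POLR1E read 8.60, 8.64 and 8.54 against 8.62, 8.03 and 8.47 (-0.22 ± 0.27). UBTF read 7.94, 7.38 and 7.52 against 8.03, 6.94 and 8.09 (0.08 ± 0.37). All 3 overlapped between the groups, replicate 2 being the lowest Ra array, and without it the differences were 0.29, -0.05 and 0.45. MYC read 11.55, 12.44 and 12.10 against 12.74, 12.19 and 12.50, with overlap, and differed by 0.45 ± 0.26 (limma adjusted p = 0.384).

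Part of the pathway was also lower in vehicle cells at 48 h than at 12 h. Between 12 h and 48 h in vehicle cells 12 of 41 members fell and 0 rose by limma on those 6 arrays, where 16.6% of all genes fell and 16.6% rose. The median difference was -0.22 against 0.01 over all genes, 27 members had a lower mean at 48 h (49.4% of all genes), and 16 lay wholly lower (26% of all genes). LYAR fell the most, by 1.25 ± 0.12 (limma adjusted p = 0.0022), followed by RRS1 (-0.83 ± 0.21), UTP20 (-0.81 ± 0.22), RRP1B (-0.68 ± 0.18), GRWD1 (-0.68 ± 0.16) and POLR1A (-0.65 ± 0.21). NOLC1 (-0.60), UBTF (-0.56), NOP16 (-0.55), FBL (-0.51), NHP2 (-0.42) and WDR75 (-0.37) fell as well. Without control 12 h replicate 2 or 3 the count was 3, without control 12 h replicate 1 it was 4, and without control 48 h replicate 1 it was 7. Calls over all genes, in either direction, dropped as well. They went from 3334 to 1554 and 1429 without control 12 h replicates 2 and 3. Without control 12 h replicate 1 they were 1554, and without control 48 h replicate 1 they were 2654. With the spread of all 12 arrays 6 members fell (10.1% of all genes).

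The members that fell over time in vehicle cells and those that fell with Ra at 12 h overlapped in part. Both comparisons use the control cells at 12 h, so their values are set side by side only. NOLC1, LYAR, WDR75, NOP16, RRS1 and GRWD1 passed in both, 6 of the 21 that fell with Ra and 6 of the 12 that fell with time. FBL, NHP2, UTP20, RRP1B, POLR1A and UBTF passed over time and not with Ra at 12 h, UBTF at -0.56 ± 0.18 against 0.14 ± 0.11 with Ra at 12 h. Of the late small subunit factors 0 of 6 passed over time (2 at an unadjusted p under 0.05, against 4602 of all 10050 genes). LTV1 was at 0.01 ± 0.13 and PNO1 at 0.00 ± 0.11 over time, whereas both fell with Ra at 12 h. Whether the effects of time and of Ra differ in size was not tested. RRN3 was higher on every control array at 48 h than at 12 h, by 0.44 ± 0.16, without passing (limma adjusted p = 0.0741).

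In Ra-treated cells 0 of 41 members passed between 12 h and 48 h (0% of all genes). The members' lowest limma adjusted p was 0.589, and 0 had an unadjusted p under 0.05, against 843 of all 10050 genes. The median difference was -0.23, close to the -0.21 of all genes, and 34 members had a lower mean at 48 h against 76.1% of all genes. Among the early small subunit factors the differences ran from -0.73 for UTP15 to 0.09 for DDX10. After centring of the arrays the members' median was 0.02. Without Ra 48 h replicate 2 it was 0.00, 20 members had a lower mean, and UTP15 differed by -0.26 and DDX10 by 0.47.

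The difference between the effects of Ra at 48 h and at 12 h was tested on all 12 arrays. Of the 41 members 0 passed limma's test (0.0199% of all genes), and 1 had an unadjusted p under 0.05, against 1933 of all 10050 genes. That member was FBL, whose effect went from -0.27 to 0.26, a difference of 0.53 ± 0.22 (limma adjusted p = 0.225). The difference was 0.80 ± 0.38 for LYAR, 0.56 ± 0.36 for RRS1 and 0.55 ± 0.32 for RRP9, whose means were nearer to control at 48 h. It was -0.89 ± 0.49 for UTP15 and -0.84 ± 0.44 for RRN3, whose means were farther from control at 48 h. The effect was lower at 48 h in 21 members and higher in 20, with a median of -0.04 against -0.19 over all genes, of which 65.6% had a lower effect at 48 h. Without Ra 48 h replicate 2 the effect was lower at 48 h in 11 members and higher in 30, with a median of 0.21 against 0.02 over all genes. LYAR then passed, at 1.20 ± 0.18 (limma adjusted p = 0.0349; 1.56% of all genes passed in that direction), while UTP15 and RRN3 were at -0.42 and -0.39.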

How the data were processed

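Total RNA of 12 HK-2 samples was measured on Affymetrix 3′ arrays. The deposited log2 values come from GCRMA, per the submitters' processing notes. GCRMA corrects background by probe sequence, normalizes arrays together and summarises probe sets, and shrinks low signals. Its version and which arrays were normalized together are not given in the sources. Platform annotation gave 1 symbol to 41097 probe sets, several to 1801 and none to 11777. Probe sets of 1 symbol with 3 or more arrays at 5 log2 units were kept (17339), and the brightest per gene was used (10050 genes).

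Each comparison was fitted with limma 3.58.1 in R 4.3.3 on its own 6 arrays (4 residual degrees of freedom), and the difference of effects on all 12 (8 residual degrees of freedom), using an intensity trend, and p-values were adjusted over all genes (Benjamini-Hochberg, 0.05). The code was tested on simulated data. Arrays give no count depth, so the number of arrays limits precision, and p-values measure the spread between these cultures of 1 line.

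To see whether replicate numbers pair samples, each array was centred on its group mean and same-numbered arrays were correlated. At 12 h the correlations were 0.182, 0.421 and 0.344. The main fits nevertheless left the replicate number out, and the block, which treats same numbers as pairs, was an alternative. At 12 h the blocked result is given where it changes a call.

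Full values are given for the 2 members with the largest difference at 12 h in each role, for all members of roles with 2 or fewer measured, for RNA polymerase I, for MYC and for members whose sign at 12 h opposes the median, with UTP4 and RRS1 added after their values were seen. Of other lists up to 3 called genes are named. Members and lists were chosen with earlier results of these data known. Alternatives were other filters, other summaries of probe sets, quantile normalization, centring, other moderation, array weights, the replicate block, the fit of all 12 arrays and leaving out each array. Promoter windows are RefSeq's on GRCh38.p14.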

Additional observations from a re-analysis of the deposited data

How the results depend on the processing

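Counts below are of 41 members unless stated. At 12 h the 21 that fell became 12 with no filter and 0 in the fit of all 12 arrays, and ranged from 8 to 21 when 1 array was left out. The count that rose, 0, became 1 (MYC) with quantile normalization, centring, array weights or the replicate block. The median of -0.45 was -0.36 with the filter at 7 log2 units or with probe sets of a gene averaged, -0.38 with array weights and -0.48 to -0.36 without 1 array. Of all members, POLR1E and, without single arrays, NOB1 turned sign; POLR1E (0.01) became -0.0104 with quantile normalization and -0.00848 with centring. Over all genes 1366 were called at 12 h, 506 with no filter, 904 without _x_at and _s_at probe sets, 2351 with the replicate block and 3 in the fit of all 12 arrays. Without 1 array 293 to 1388 of all genes were called.

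At 48 h the 0 that fell became 1 with quantile normalization, 2 with centring, 8 in the fit of all 12 arrays and 22 with array weights, where 4 rose. Centring and quantile normalization, which move the median of all genes from -0.20 to 0.05 and 0.01, turned 9 and 6 members, so that 24 and 27 had a lower mean instead of 33. Among the 19 with full values these were NOLC1 (0.15 and 0.0512), RRP9 (0.21 and 0.20) and POLR1E (0.0304 and 0.0372), and with centring alone BYSL (0.00193) and POLR1A (0.0214). The others were UTP20, RRP1, GRWD1 and, with centring, NPM1. Averaging of probe sets turned MYBBP1A and RRP1B. Array weights turned 4, PES1, GRWD1, NOLC1 (0.0475) and POLR1A (0.0695). Leaving out 1 array turned up to 6 members at a time and left 28 to 37 with a lower mean: NHP2, UTP20, RRP1, GRWD1 and RRS1 turned, as did 5 of the 19, which ranged from -0.16 to 0.0790 (RRP9), -0.13 to 0.45 (UBTF), -0.20 to 0.41 (LYAR), -0.26 to 0.0251 (NOLC1) and -0.51 to 0.29 (POLR1A). Of all genes 0 were called at 48 h, 639 with quantile normalization, 714 with centring, 4790 with array weights and 1262 in the fit of all 12 arrays.

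Over time in control cells the 12 that fell became 4 with no filter and 6 of 31 without _x_at and _s_at probe sets. They became 6 in the fit of all 12 arrays, and 3 to 9 without 1 array. With array weights 5 rose and the median went from -0.22 to -0.10, and 0 to 1 rose without 1 array. Of all genes 3334 were called over time in control cells, and 5788 with array weights. With no filter 2091 of all genes were called, in the fit of all 12 arrays 1955, and without 1 array 1429 to 4583. In Ra cells over time the members' median of -0.23 became 0.0185 with centring. For the difference of effects 3 rose with quantile normalization, 2 with centring and 6 with array weights, where 6 fell. Without 1 array 0 to 1 rose. Of all genes 2 were called for that difference, 945 with quantile normalization, 856 with centring and 4464 with array weights. Without 1 array 1 to 1041 of all genes were called. The members' median of -0.04 was 0.20 with quantile normalization, 0.22 with centring and -0.15 to 0.21 without 1 array. The highest of that range was without Ra 48 h replicate 2. The cause of these shifts was not tested.

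The replicate block changed the calls of FBL, DDX21, RRP9, WDR43, UTP15, RRP12 and MYC at 12 h, all to passing. At 48 h same-numbered correlations were 0.301, -0.219 and 0.097, and 0 members passed with the block. Over time in control cells 8 fell with the block, as did 1356 of all 10050 genes. Precision is limited by 3 arrays per group and, for POLR1A, RRP9, RRP12 and MYBBP1A, by low signal.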
